A study of Mus musculus with 2 samples.

Results

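Among 32316 barcodes of a joined single-cell RNA-seq matrix of mouse liver, 112 carried transcripts of both Mki67 and Top2a and are described here as cycling cells. They were chosen by 4 limits: at least 1000 unique molecular identifiers (UMIs, 1 per captured transcript molecule), at most 25% of UMIs from mitochondrial genes, at least 1 UMI of Mki67 and at least 1 UMI of Top2a. The first pair of limits left 12996 cells, of which the 112 made up 0.862% (exact binomial 95% interval 0.710% to 1.04%). The levels of Mki67 and Top2a in these cells are therefore a description of how they were selected and not a finding.

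The study compared liver cells of a Cebp KO and a Cebp WT sample, 1 of each, to follow what the loss of the transcription factor C/EBPα from hepatocytes does under a diet that injures the liver. The KO mice carried Cebpa fl/fl alleles and an albumin-cre transgene, which deletes the gene in hepatocytes and leaves it intact in blood and vessel cells, and the controls carried the floxed alleles without Cre according to the study's methods. Mice of both groups were males on a C57BL/6N background and had been fed the 40% HFCFD, a high-fat, high-cholesterol and high-fructose diet, for 2 weeks. Their age, and the number of animals behind each sample, were not given in the sources used here. The matrix tells its 2 libraries apart only by the suffix of the barcode, 1 or 2, and no label ties a suffix to a genotype, so libraries are named by suffix and no difference between them is read as one between genotypes. With 1 library per suffix no test was possible, and every interval below is exact, at 95%, and covers counting error only, while the limit that a count of 0 allows is given as 3 counts of the total.

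A cell that divides copies its DNA in S phase and separates the copies in mitosis, and each step uses its own set of transcripts. Mki67 encodes the Ki-67 protein that coats mitotic chromosomes, and Top2a encodes the topoisomerase that untangles them, so both are present from S phase to the end of mitosis and largely absent at rest. In the liver most hepatocytes are at rest, whereas resident macrophages, dendritic cells and activated lymphocytes can divide in the tissue.

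In the mouse genome (GRCm38) Mki67 lies on the minus strand at chr7:135689784-135716361 and its first annotated transcript has 14 exons, and Top2a lies on the minus strand at chr11:98992943-99024189 with 36 exons. Promoters of cell cycle genes often hold CCAAT boxes together with a cell cycle homology region (CHR), which the DREAM and MuvB complexes read, while replication genes often hold E2F boxes. The 180 bases before the RefSeq start (GRCm38.p6) are shown for the pair of genes that chose the cells, for Mcm5 as a replication gene whose window holds E2F letters, and for Kif11 as a spindle gene whose window holds CHR letters. Capitals mark the letters TTTGAA (CHR), CCAAT, or 1 of the E2F forms TTTCCCGC, TTTGGCGC, TTTGCCGC and TTTCGCGC, read on either strand, and in Mcm5 a pair of E2F matches overlaps.
Mki67, chr7:135716380-135716559, minus strand: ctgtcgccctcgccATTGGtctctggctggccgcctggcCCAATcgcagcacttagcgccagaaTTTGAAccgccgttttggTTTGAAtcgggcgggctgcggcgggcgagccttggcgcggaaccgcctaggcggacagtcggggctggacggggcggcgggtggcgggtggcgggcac
Top2a, chr11:99024190-99024369, minus strand: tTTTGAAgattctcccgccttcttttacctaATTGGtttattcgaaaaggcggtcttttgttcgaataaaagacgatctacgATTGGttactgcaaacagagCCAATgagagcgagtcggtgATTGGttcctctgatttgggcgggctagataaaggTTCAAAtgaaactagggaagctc
Mcm5, chr8:75109329-75109508, plus strand: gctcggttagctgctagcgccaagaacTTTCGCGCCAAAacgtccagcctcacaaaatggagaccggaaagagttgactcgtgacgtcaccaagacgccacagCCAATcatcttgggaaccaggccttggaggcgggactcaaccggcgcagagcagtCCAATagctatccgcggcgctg
Kif11, chr19:37376202-37376381, plus strand: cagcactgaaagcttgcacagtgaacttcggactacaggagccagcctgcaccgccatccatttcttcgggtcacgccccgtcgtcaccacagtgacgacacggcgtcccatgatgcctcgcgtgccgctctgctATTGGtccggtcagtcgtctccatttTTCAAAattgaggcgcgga

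Of 120 cell cycle genes listed for this description, 92 had a RefSeq window of 300 bases, from 250 before to 50 after the start. CHR and CCAAT letters occurred together in 37.0% of these windows (34 of 92) and in 7.12% of the windows of all 27025 genes. The share was 66.7% (10 of 15) among spindle and cytokinesis genes, 0% (0 of 13) among DNA synthesis genes and 22.2% (2 of 9) among replication licensing genes. An E2F form occurred in 66.7% (6 of 9) of the windows of replication licensing genes, in 15.4% (2 of 13) of those of DNA synthesis genes, in 0 of 15 spindle genes and in 2.32% of all windows. A match is a run of letters and was not tested as a binding site.

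Suffix 1 held 58 cycling cells among 8320 within the limits (0.697%, 0.530% to 0.900%), and suffix 2 held 54 among 4676 (1.15%, 0.869% to 1.504%). Cycling cells were much deeper than the rest. Their median was 15150.5 UMIs in suffix 1 and 14309.5 UMIs in suffix 2, beside 2010.5 and 3304.5 UMIs over all cells within the limits. The rule asks for UMIs of 2 genes and so passes deep cells more often. Among cells of at least 5000 UMIs the shares were 3.02% (54 of 1788) in suffix 1 and 3.26% (50 of 1534) in suffix 2, and the gap between the libraries was within counting error. After each of the cells of at least 1000 UMIs was thinned to 1000 UMIs, 15 cells in each library still carried both transcripts (0.180% and 0.321%). Mitochondrial UMIs had a median of 4.64% in the cycling cells of suffix 1 and 4.97% in those of suffix 2. The libraries shared 81 barcode sequences, but no barcode of a cycling cell occurred in the other library.

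Cycling cells carried 1 to 55 UMIs of Mki67 (median 6) and 1 to 63 of Top2a (median 10) in suffix 1, and 1 to 27 (median 7) and 1 to 31 (median 8) in suffix 2. They held 89.3% of all Mki67 UMIs and 91.0% of all Top2a UMIs of the cells within the limits in suffix 1, and 81.1% and 93.4% in suffix 2. Just inside the limit were 4 cells of suffix 1 and 5 of suffix 2 with exactly 1 UMI of both genes. Just outside it were 59 and 57 cells with Mki67 alone, at up to 8 and 10 UMIs, and 67 and 36 cells with Top2a alone, at up to 7 and 2 UMIs.

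Genes that the rule did not use set the cycling cells apart in the same way. Of the 120 listed cell cycle genes, a cycling cell of suffix 1 held UMIs of 7 to 106 (median 76), and one of suffix 2 held UMIs of 8 to 101 (median 70.5). Cells of at least 5000 UMIs with neither rule gene held a median of 12 and 10. The cells at exactly 1 UMI of both genes had medians of 23.5 and 12 listed genes, which was nearer to the cells outside the rule than to the median cycling cell. Of 8136 cells of suffix 1 with neither gene, 3 had a summed level of the list above the first quartile of the cycling cells, and of 4529 such cells of suffix 2, 0 did. The label of cycling cells thus held on these transcripts for most of the 112, and less clearly for the 9 at the limit and for some others, such as a B or plasma-like cell of suffix 1 with 16 listed genes at 12861 UMIs and one of suffix 2 with 27 at 10826 UMIs.

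Lineages were read cell by cell from Ptprc (CD45, all leukocytes), Cd3e (T cells), Klrb1c (NK cells), Cd79a (B cells), C1qa (macrophages), Siglech (plasmacytoid dendritic cells), Hbb-bs (erythroid cells), Stab2 (liver sinusoidal endothelium) and Alb (hepatocytes), with short lists for conventional dendritic cells (cDCs), neutrophils, stellate cells and cholangiocytes. Limits for each marker are relative to 10000 UMIs of the cell and were set after the counts were seen. Ptprc was detected in 101 of the 112 cycling cells (90.2%), Cd3e in 33, C1qa in 43, Cd79a in 15, Siglech in 8 and Klrb1c in 7. Hbb-bs was detected in 68 and Stab2 in 26, although 0 cycling cells were classed as erythroid-like and 2 as endothelial-like. Alb was detected in all 112, at 31 UMIs or more, in leukocytes that should lack it as well as in hepatocytes, and only cells of at least 200 Alb UMIs were counted as hepatocyte-like.

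**Figure D1:**
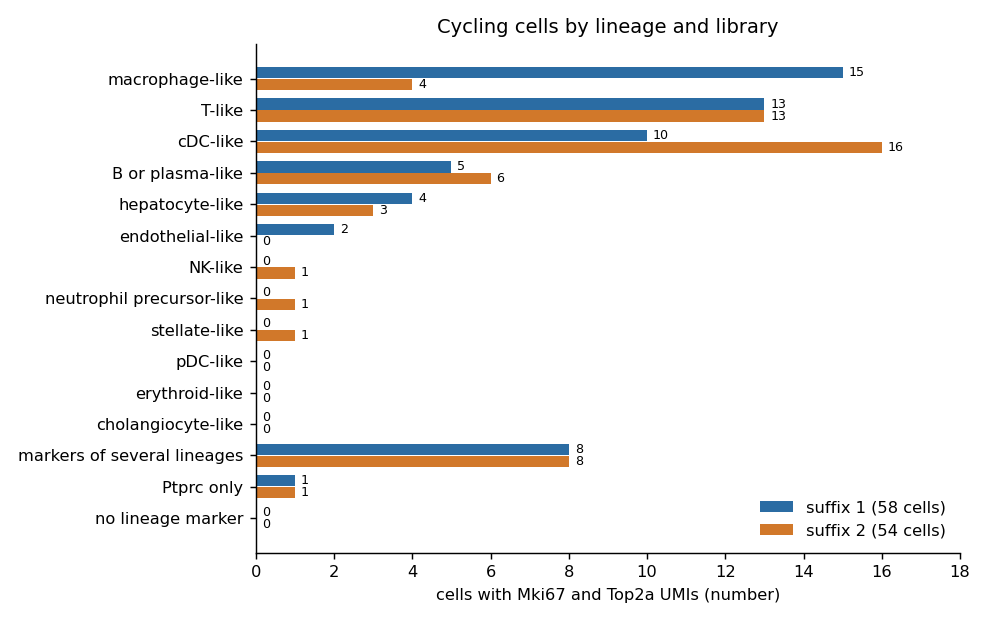
Number of cells with Mki67 and Top2a UMIs (horizontal axis) in each lineage (vertical axis) for the library of suffix 1 (blue) and suffix 2 (orange). T-like cells number 13 in both libraries, while macrophage-like cells number 15 and 4 and cDC-like cells 10 and 16.

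Macrophage-like, T-like and cDC-like cells made up most of the cycling cells in suffix 1, and T-like and cDC-like cells in suffix 2. With each marker counted from 1 UMI, the macrophage-like share of cycling cells was 5.17% in place of 25.9% in suffix 1 and 1.85% in place of 7.41% in suffix 2. Suffix 1 held 15 macrophage-like, 13 T-like, 10 cDC-like, 5 B or plasma-like, 4 hepatocyte-like and 2 endothelial-like cells. Suffix 2 held 4 macrophage-like, 13 T-like, 16 cDC-like, 6 B or plasma-like and 3 hepatocyte-like cells, with 1 NK-like, 1 neutrophil precursor-like and 1 stellate-like cell. Each library had 8 cells with markers of several lineages and 1 cell with Ptprc as its only marker. None of 7696 cells without any lineage marker was cycling by the rule, which allows a share of up to 0.0542% in suffix 1 and 0.139% in suffix 2, and their median depth was 1519 UMIs in suffix 1 and 1818 in suffix 2.

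**Figure D2:**
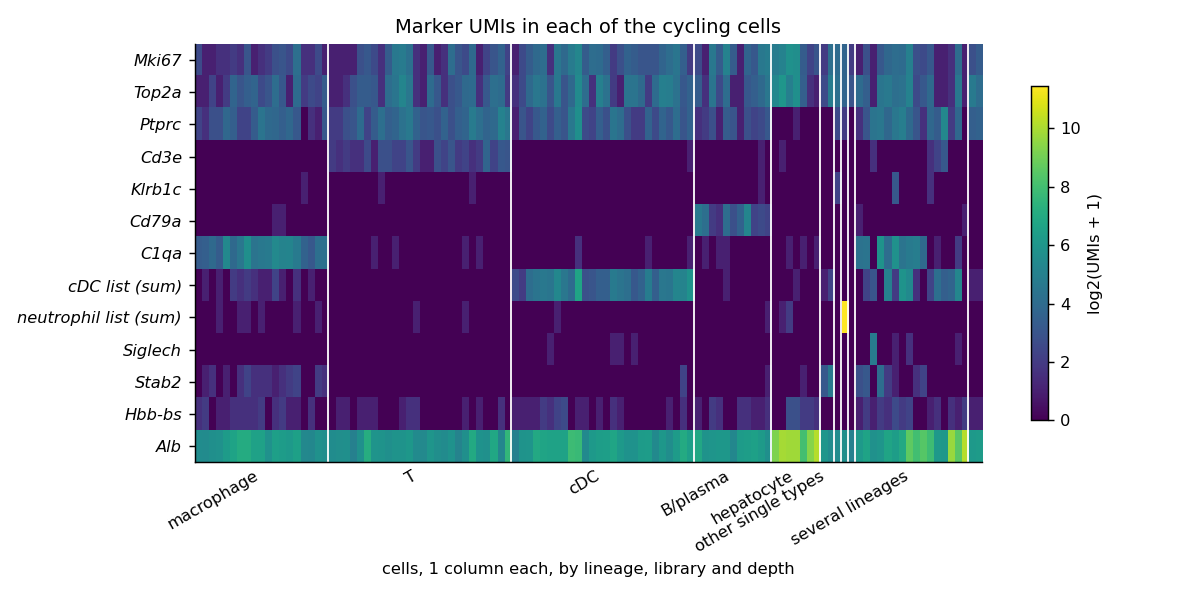
UMIs of the rule genes and of each lineage marker (rows, colour as log2(UMIs + 1)) in each of the 112 cycling cells (columns, grouped by lineage with white lines between groups). C1qa, Cd3e, the cDC list and Cd79a light up in turn in separate blocks of cells, Alb is at 31 UMIs or more everywhere, and cells with markers of several lineages stand near the right edge.

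By the rule, the share of cycling cells was highest among cDC-like cells, although with either gene at 5000 UMIs it was 16.1% in cDC-like and 16.7% in B or plasma-like cells of suffix 1. By the rule 10 of 60 cDC-like cells cycled in suffix 1 (16.7%, 8.29% to 28.5%) and 16 of 72 in suffix 2 (22.2%, 13.3% to 33.6%). Macrophage-like cells cycled at 5.32% in suffix 1 (15 of 282, 3.01% to 8.62%) and at 0.920% in suffix 2 (4 of 435, 0.251% to 2.34%), and these intervals did not overlap. T-like cells cycled at 2.45% (13 of 530) and 2.92% (13 of 445), and B or plasma-like cells at 2.30% (5 of 217) and 3.30% (6 of 182), with intervals that overlapped widely between the libraries. Hepatocyte-like cells cycled at 0.726% (4 of 551) and 0.612% (3 of 490), although they were the deepest cells, with medians of 27225 and 13859.5 UMIs.

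No cycling cell was found among 220 pDC-like cells, which allows a share of up to 2.40% in suffix 1 and 3.16% in suffix 2, nor among 378 erythroid-like cells, which allows up to 1.11% and 2.78%. UMIs of a single rule gene were in 2 pDC-like cells of suffix 1 and 1 of suffix 2, and in 0 erythroid-like cells. pDC-like cells had medians of 7078 and 6414 UMIs, beside 8798 and 6598 UMIs in macrophage-like cells, whose cycling members had medians of 14012 and 6051.5 UMIs. With each cell thinned to 5000 UMIs, 0 of 114 and 0 of 81 pDC-like cells carried both transcripts (upper limits 3.18% and 4.45%). Thinning cannot raise a count of 0, and the part of depth in it was not tested. Red blood cells lack a nucleus and should lack both transcripts, and 0 of 378 carried them at medians of 4270.5 and 3976.5 UMIs. These limits are above the shares of hepatocyte-like cells and of macrophage-like cells of suffix 2, so a background from free RNA of that size was not measurable here.

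Depth differed between lineages, and the shares were therefore repeated after thinning. At 1000 UMIs per cell both transcripts were seen in 3 of 60 and 5 of 72 cDC-like cells (5% and 6.94%), in 4 of 530 and 4 of 445 T-like cells (0.755% and 0.899%), and in 0 of 282 and 2 of 435 macrophage-like cells, counts too small to order. At 5000 UMIs per cell, a depth added after the counts were seen that leaves out shallower cells, the shares were 12.5% and 15.9% of cDC-like cells, 5% and 11.6% of B or plasma-like cells, 3.74% and 6.02% of T-like cells, and 0.756% and 0.217% of hepatocyte-like cells. Macrophage-like cells stood at 4.78% in suffix 1 (10 of 209, 2.32% to 8.62%) and 0.344% in suffix 2 (1 of 291, 0.00870% to 1.90%), and these intervals did not overlap. At the other depths they did: at 2000 UMIs the shares were 1.17% (0.241% to 3.37%) and 0.493% (0.0597% to 1.77%), at 1000 UMIs the order of the libraries was the reverse, and with either gene at 5000 UMIs they were 12.4% (8.29% to 17.7%) and 5.84% (3.44% to 9.19%). Neither library has a replicate, so spread between animals or captures cannot be told apart from this gap.

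**Figure D3:**
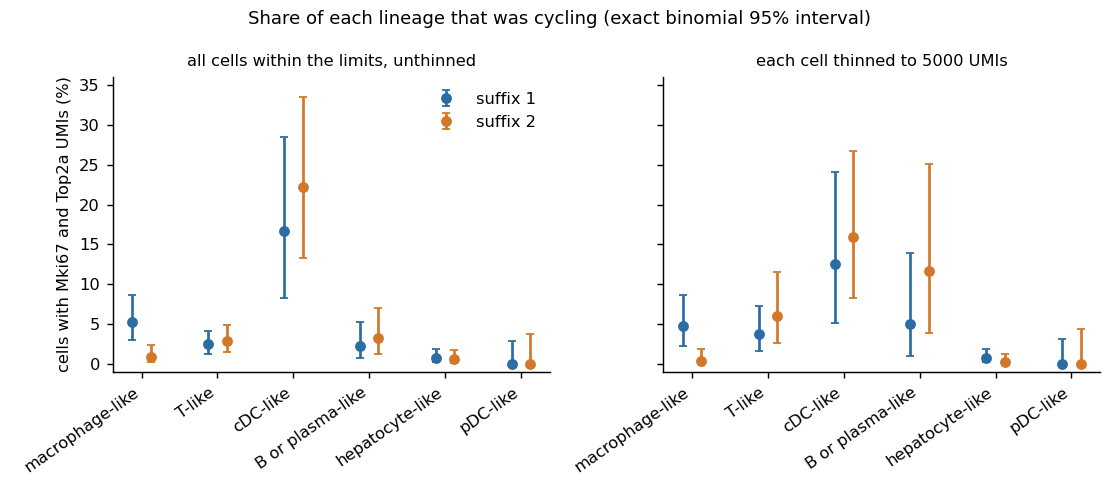
Percent of cells of 6 lineages that carried UMIs of Mki67 and Top2a (vertical axis), with exact binomial 95% intervals, in all cells within the limits (left) and after each cell was thinned to 5000 UMIs (right), for suffix 1 (blue) and suffix 2 (orange). cDC-like cells are highest in both libraries in the left panel, pDC-like cells are at 0, and the intervals of macrophage-like cells do not overlap between the libraries at these settings.

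Genes of cycling cells were compared with those of the other cells of the same lineage and library by the ratio of their CPM, the UMIs of a gene per 1000000 summed UMIs. This was done where a library held at least 10 cycling cells of a lineage, which gave 5 comparisons. A gene entered at 50 CPM in either set of cells, and one at 0 in either set was given the level of 3 UMIs of that set, so its ratio depends on that floor. Mki67 and Top2a were left out. Because the cells were chosen on 2 genes of the same counts, the ratios are a description of these cells.

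In cycling macrophage-like cells of suffix 1, 423 of 4472 genes (9.46%) were at 2-fold or more of the level in other macrophage-like cells and 112 (2.5%) at 0.5-fold or less. The shares were 15.4% higher and 9.87% lower in T-like cells of suffix 1, and 20.7% and 14.8% in T-like cells of suffix 2. They were 12.6% and 6.92% in cDC-like cells of suffix 1, and 12.5% and 11.5% in those of suffix 2. The excess of higher genes depended on genes that passed 50 CPM only in the cycling cells. Among genes at 50 CPM or more in the other cells, lower genes outnumbered higher ones in all 5 comparisons, with 76 higher and 112 lower, 151 and 405, 300 and 602, 104 and 277, and 99 and 463 in the order above. This filter keeps every lower gene and can drop only higher ones, so it leans to lower genes, and no direction is read from the split. In cDC-like cells of suffix 2 lower genes also outnumbered higher ones at 20 CPM (1117 and 1002) and with no filter (1762 and 1449). Cycling cells were deeper than the others of their lineage in all 5 comparisons, for example 14012 against 8511 UMIs (medians) in macrophage-like cells and 10872 against 4355.5 UMIs in T-like cells of suffix 2. Against other cells of at least 5000 UMIs, 405 of the 423 genes were again higher in macrophage-like cells, and 581 of 632 and 762 of 841 in T-like cells.

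Cell cycle genes were counted over the same comparisons. Of the 120 listed, 57 were past 2-fold in all 5 comparisons, 84 in at least 3 and 103 in at least 1, while 5 were lower in at least 1 and 11 never reached 50 CPM. Between 66 and 81 of them reached 50 CPM only in the cycling cells and could not have come out as lower, so the counts are a description only. Of the listed genes that reached 50 CPM in the other cells as well, 7 of 12 were higher and 0 lower in macrophage-like cells, 10 and 1 of 16 in T-like cells of suffix 1, 9 and 4 of 15 in T-like cells of suffix 2, 7 and 3 of 15 in cDC-like cells of suffix 1, and 6 and 1 of 11 in those of suffix 2. Over all genes that reached it there, 2.05% to 9.35% were higher and 3.01% to 18.8% lower.

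The largest ratios included 4 transcripts shared by all 3 lineages. Pclaf, which encodes a clamp-associated factor of S phase, Hist1h1b, a linker histone made during replication, and Knl1 and Nusap1, which act at the kinetochore and the spindle, were each among the 10 largest of every lineage. Each was at 10.3 CPM or less in the other cells of every comparison, and passed the filter only through the cycling cells. Cells of all 3 lineages were chosen on the same rule genes, so the sharing is a description only. Pclaf was at 317 CPM in 15 cycling macrophage-like cells (65 UMIs) and at 1.28 CPM in 267 others, a ratio of 247 (81.0 to 1230). It was at 486 CPM and 619 CPM in cycling cDC-like cells of suffix 1 and 2, where the others had no UMI, and the ratios were 94.2 and 104 with the others set at 3 UMIs (exact lower limits 75.3 and 83.3). All 16 cycling cDC-like cells of suffix 2 carried it, as did 8 of 10 in suffix 1.

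Hist1h1b was at 936 and 1758 CPM in cycling T-like cells of suffix 1 and 2 and at 0.371 and 2.44 CPM in the others. Its ratio in suffix 1 rests on 1 UMI among the other cells and has an interval of 444 to 100475. In macrophage-like cells it was at 132 CPM, 27 UMIs in 7 of 15 cells. Most replication histone transcripts lack the poly(A) tail that the 3′ capture of this assay binds, so their counts are only a part of what a cell holds.

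Ratios of replication genes ranged widely. Replication licensing and helicase genes, a list of 13 with the MCM subunits of the helicase and the factors that load and activate it, had a median ratio of 6.66 in macrophage-like cells (11 of 11 tested genes higher) and 8.14 in T-like cells of suffix 1 (9 of 9 higher). In cDC-like cells of suffix 1 the median was 4.39 with 5 of 6 higher. Each tested gene of this list passed the filter only through the cycling cells, so these counts are a description only. Mcm5, whose promoter is shown above, was at 127 CPM against 13.3 CPM in macrophage-like cells, a ratio of 9.57 (5.46 to 16.7), and at 5.93 (2.58 to 14.8) and 9.36 (4.10 to 24.97) times the level of other cDC-like cells in suffix 1 and 2. Pcna, the sliding clamp of DNA synthesis, had ratios of 4.10 to 7.002 over the 5 comparisons. Rrm2, the ribonucleotide reductase subunit that limits nucleotide supply, had 0 to 7 UMIs in the other cells of each comparison and 26 to 40 in the cycling cells. Its ratio was 183 (46.6 to 1573) in macrophage-like cells and 83.4 (35.6 to 226) in T-like cells of suffix 1.

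Median ratios of mitotic lists were above those of the licensing list in all 5 comparisons. The cells were chosen on Mki67 and Top2a, whose transcripts peak late in the cycle, so the order of the lists is a description only. All but at most 1 of the tested mitotic kinase and checkpoint genes in each comparison passed the filter only through the cycling cells. The median was 26.0 for mitotic kinases and checkpoint genes and 34.2 for kinetochore genes in macrophage-like cells, and 90.4 and 48.3 in T-like cells of suffix 1. Against other T-like cells of at least 5000 UMIs the medians for mitotic kinases were 53.5 in suffix 1 and 29.2 in suffix 2. Those for kinetochore genes were 34.4 and 25.4, and those for licensing genes 5.56 and 4.97. Against all other T-like cells of suffix 2 the medians were 61.6 for mitotic kinases, 52.3 for kinetochore genes, 7.47 for licensing and 13.4 for DNA synthesis. In cDC-like cells the medians were 16.9 and 32.4 in suffix 1 and 32.8 and 19.7 in suffix 2, beside 25.9 and 21.8 for histone and chromatin assembly genes. All tested kinetochore genes (6 to 10 of 10 listed) and spindle genes (15 to 17 of 18 listed) were higher in each of the 5 comparisons, but each tested kinetochore gene, and all but 2 or 3 spindle genes in each comparison, passed the filter only through the cycling cells. Kif11, the spindle motor that pushes the poles apart, had no UMI in the other cDC-like cells of either library and 49 and 59 UMIs in the cycling ones, ratios of 43.6 and 36.8 with the others set at 3 UMIs (exact lower limits 34.1 and 29.0). Stmn1, which encodes a microtubule-destabilizing protein, was detected in 15 of 15 cycling macrophage-like cells and in 20 of 267 others.

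**Figure D4:**
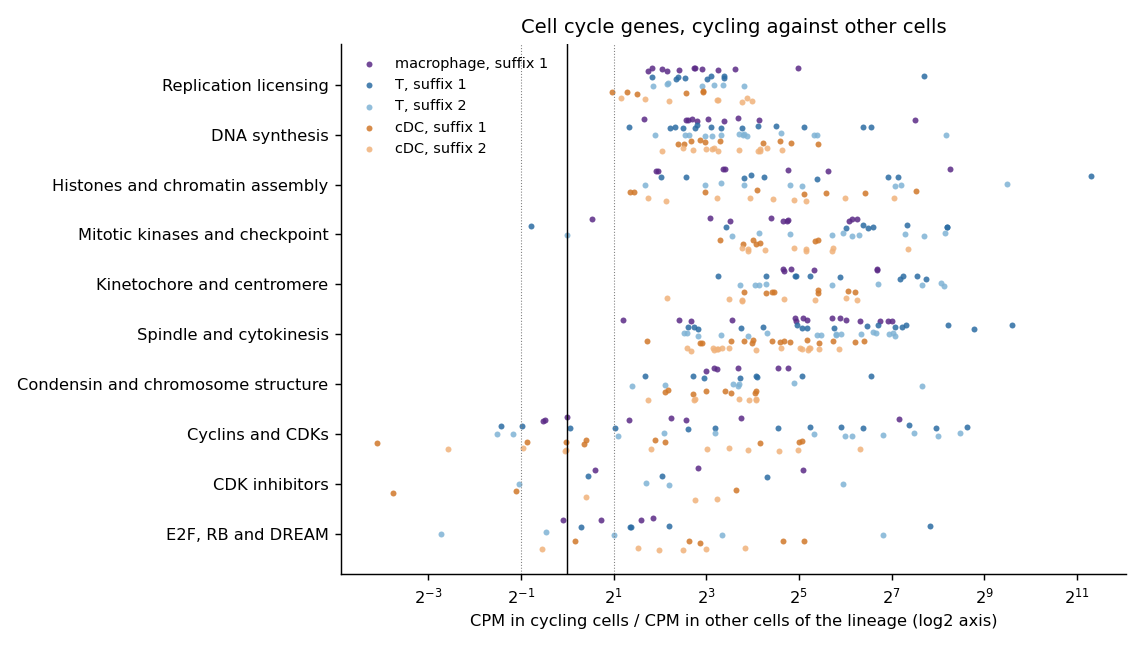
Ratio of CPM in cycling cells to CPM in other cells of the same lineage and library (horizontal log2 axis, dotted lines at 0.5 and 2) for each tested gene of 10 cell cycle lists (vertical axis), coloured by comparison. Genes of replication and mitosis lie right of 2 with few exceptions, while cyclins, CDK inhibitors and the E2F and RB list spread to both sides of 1.

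The lists that regulate entry into the cycle were mixed. Of the E2F, RB and DREAM genes, 2 of 4 tested were higher in macrophage-like cells, 4 of 5 in T-like cells of suffix 1, 3 of 5 with 1 lower in those of suffix 2, and 4 of 5 and 5 of 6 in cDC-like cells of suffix 1 and 2. All but 1 or 2 of the tested genes in each comparison passed the filter only through the cycling cells, so these counts are a description only. Foxm1 and Mybl2, which drive mitotic genes, did not reach 50 CPM in any comparison. Rbl2, the pocket protein p130 that holds resting cells out of the cycle, was lower in 1 comparison, T-like cells of suffix 2. Cdkn2c, an inhibitor of CDK4 and CDK6, was higher in all 5 comparisons with ratios of 4.57 to 34.2. It was at 0 to 13.2 CPM in the other cells, passed the filter only through the cycling cells and could not have come out as lower. The same limit holds for Cdkn2d, higher in the 3 comparisons where it was tested. Cdkn1b was lower in 2 of 5 comparisons and higher in 0. Cdkn1a, the p53 target p21, was at 117 CPM in cycling macrophage-like cells of suffix 1 against 16.7 CPM in the others, and at 4.59 CPM in cycling cDC-like cells of suffix 1 against 61.9 CPM. In macrophage-like cells Cdkn1a passed the filter only through the cycling cells.

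D-type cyclins link growth signals to the cell cycle, and their levels were read in the cycling cells of each lineage. In cycling macrophage-like cells of suffix 1, Ccnd1 and Ccnd3 were both at 166 CPM (34 UMIs each, 115 to 232 CPM) and Ccnd2 at 29.3 CPM. In the 4 of suffix 2, Ccnd1 gave 1 UMI (40.4 CPM) and Ccnd3 stood at 605 CPM (339 to 998). Cycling cDC-like cells had Ccnd1 at 165 and 287 CPM and Ccnd3 at 303 and 246 CPM in suffix 1 and 2, with Ccnd2 at 9.17 and 22.4 CPM. Cycling T-like cells had no Ccnd1 UMI in suffix 1 and 1 in suffix 2, and carried Ccnd2 at 201 and 230 CPM and Ccnd3 at 395 and 323 CPM. In cycling B or plasma-like cells Ccnd1 had no UMI in either library, Ccnd2 was at 533 (395 to 702) and 248.6 CPM (156 to 376) and Ccnd3 at 32.0 and 102 CPM. The 4 cycling hepatocyte-like cells of suffix 1 had Ccnd1 at 777 CPM (660 to 909), Ccnd3 at 64.7 CPM and no Ccnd2 UMI. The 3 of suffix 2 had Ccnd1 at 63.6 CPM (20.7 to 148).

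Set against other cells of the same lineage, D cyclins were higher in some lineages and lower in others, and the libraries did not always go the same way. In T-like cells Ccnd2 was at 201 CPM in cycling and 543 CPM in other cells of suffix 1, and at 230 and 517 CPM in suffix 2, and the ratios of Ccnd3 were 0.508 (0.377 to 0.670) and 0.347 (0.263 to 0.450). Ccnd1 in macrophage-like cells was at 166 CPM in cycling and 167 CPM in other cells of suffix 1. In B or plasma-like cells Ccnd2 was at 63.2 and 32.3 CPM in the other cells, below the cycling ones, and Ccnd3 at 544 and 654 CPM, above them. The class pools B and plasma cells in unlike parts, since Jchain was detected in 9 of the 11 cycling cells but in 16 of 212 and 23 of 176 others, and the part of that mix was not tested. Other hepatocyte-like cells held Ccnd1 at 9.25 and 12.1 CPM in suffix 1 and 2, below the cycling ones, and Ccnd3 at 27.5 CPM in suffix 1. In suffix 2 the other hepatocyte-like cells had Ccnd3 at 34.1 CPM and the cycling ones 1 UMI, at 12.7 CPM (0.322 to 70.9), an interval that holds both. Ccnd3 in macrophage-like cells was at 166 CPM (115 to 232) in cycling and 233 CPM in other cells of suffix 1, and at 605 and 235 CPM in suffix 2, where Ccnd1 was at 40.4 and 97.8 CPM. In cDC-like cells Ccnd1 had a ratio of 0.549 (0.372 to 0.789) in suffix 1 and 0.987 (0.739 to 1.31) in suffix 2, and Ccnd3 one of 0.978 (0.726 to 1.30) and 0.515 (0.386 to 0.678).

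**Figure D5:**
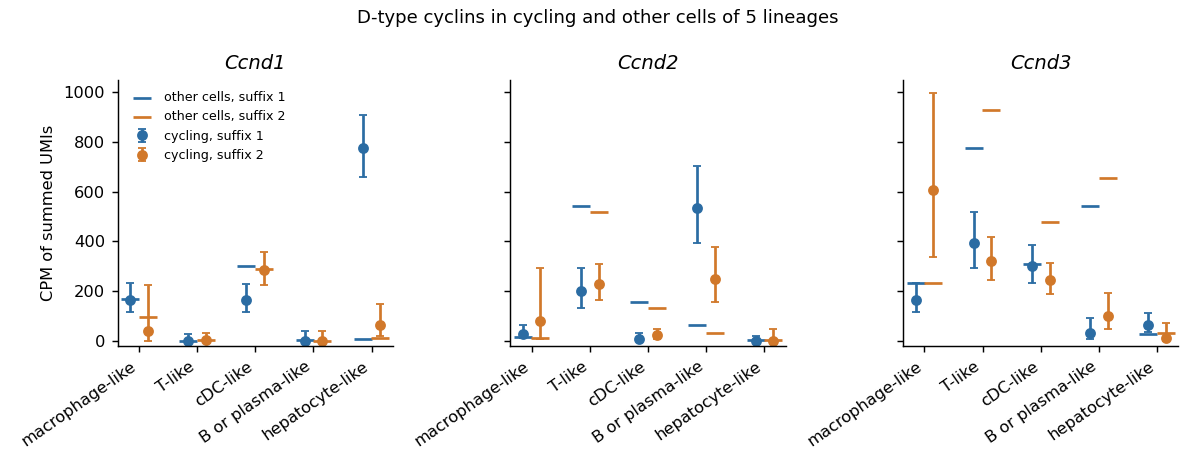
CPM of summed UMIs of Ccnd1, Ccnd2 and Ccnd3 (vertical axis) in cycling cells of 5 lineages (points, with exact Poisson 95% intervals) and in the other cells of the same lineage (dashes), for suffix 1 (blue) and suffix 2 (orange). Ccnd1 is near 0 in cycling T-like and B or plasma-like cells and reaches 777 CPM in the 4 cycling hepatocyte-like cells of suffix 1. Among cycling cells Ccnd2 is highest in the B or plasma-like ones, while the other T-like cells hold it at 543 and 517 CPM.

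The cycling macrophages carried genes of resident Kupffer cells, the macrophages that line the liver sinusoids. In suffix 1 Clec4f, a lectin of Kupffer cells, was detected in 14 of 15 cycling macrophage-like cells at 0 to 66 UMIs (median 27), and in 236 of 267 others. Timd4, a receptor of long-lived resident macrophages, was detected in 13 of 15 and at 312 CPM (241 to 399), below the 518 CPM of the others. In suffix 2 Clec4f was detected in 4 of 4 cycling cells and Timd4 in 2 of 4. Ccr2, a chemokine receptor of monocytes, gave 4 UMIs, all in 1 cell of suffix 1, and Ly6c2 gave none in either library. Cd163 was at 283 CPM (215 to 366) against 502 CPM and Marco at 220 CPM (160 to 294) against 136 CPM in suffix 1. The sinusoidal endothelial list gave 1 to 41 UMIs (median 6) in each of the 15 cells of suffix 1, and its part in the ratios was not tested.

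Of the 112 genes lower in the cycling macrophages of suffix 1 (202 with 2 UMIs of each rule gene), those with the smallest ratios were named by rank. Wfdc17, a secreted protein of activated macrophages, was at 986 CPM against 2336 CPM, a ratio of 0.42 (0.36 to 0.49), and all 15 cells carried it. Fn1 (fibronectin) had a ratio of 0.35 (0.18 to 0.62), Junb, an immediate early transcription factor, 0.38 (0.16 to 0.76) and Hist1h2bc 0.27 (0.099 to 0.60). Apoc2 and Cfb were also among the 10 smallest ratios, but hepatocyte-like cells of the library held them at 2115 and 356 CPM, as they did Fn1 and Hist1h2bc at 675 and 295 CPM, so hepatocyte RNA in the droplets and the macrophages' own transcripts cannot be told apart. The Alb level showed the same movement, at 5881 CPM in cycling and 8190 CPM in other macrophage-like cells, although the UMIs of Alb per cell were 80.3 and 71.7.

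Cycling T-like cells were of mixed kinds. In suffix 1, 3 of 13 carried Cd8a or Cd8b1 UMIs without Cd4, 4 carried Cd4 alone, 1 carried both and 5 carried neither. In suffix 2, 5 carried CD8 genes, 3 Cd4 and 5 neither. Foxp3, the factor of regulatory T cells, was detected in 1 of 13 and 0 of 13 cells. Granzyme genes of killer cells stood at unlike levels in the 2 libraries. Gzmb was at 108 CPM (59.2 to 182) in cycling T-like cells of suffix 1 and at 449 CPM (357 to 558) in those of suffix 2, beside 206 and 113 CPM in the others. Gzma was at 15.5 and 1117 CPM, with the 204 UMIs of suffix 2 in 5 of 13 cells and up to 83 in 1 of them. Eomes, a transcription factor of effector lymphocytes, was in 1 of 13 and 6 of 13 cells. These values rest on 1 to 6 cells per library and are not a difference between groups of animals.

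The 10 smallest ratios in T-like cells included genes of several kinds, and they were named by that rank. Bcl2, which protects cells from death, was at 201 and 60.3 CPM in cycling and 805 and 895 CPM in other cells, ratios of 0.25 (0.16 to 0.37) and 0.067 (0.034 to 0.12). Il7r, the receptor for the survival cytokine IL-7, had ratios of 0.26 (0.15 to 0.42) and 0.23 (0.14 to 0.34). Txnip, an inhibitor of glucose uptake, had 0.22 (0.080 to 0.48) and 0.21 (0.090 to 0.42), and Ikzf2 (Helios) 0.23 (0.10 to 0.47) and 0.17 (0.066 to 0.34). Pip5k1b, Scml4 and Fhit complete the list with Gsta3, Gnmt and Akr1c6. Cxcr6, a receptor of liver T cells that was not chosen by rank, was at 193 and 87.6 CPM against 366 and 487 CPM. Hepatocyte-like cells held Gsta3, Gnmt and Akr1c6 at 522 to 2035 CPM in the 2 libraries. Alb itself was at 5912 against 10031 CPM in suffix 1 and 5001 against 11214 CPM in suffix 2. Its UMIs per cell were 58.8 in cycling and 52.3 in other cells of suffix 1, and 70.2 and 53.1 in suffix 2. For these genes hepatocyte RNA in the droplets and the T cells' own transcripts cannot be told apart.

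Cycling cDC-like cells mostly carried Xcr1 or Clec9a, marker genes of cDC1, the cross-presenting subset. The class was chosen by at least 3 UMIs of Flt3, Xcr1, Clec9a, Cd209a and Zbtb46 together, which include only Cd209a for cDC2. It can thus take in cDC1 cells more easily, among cycling and other cells alike. The 1 cell of each library with Ptprc as its only marker had 124 and 56 H2-Ab1 UMIs but 1 UMI of these genes, and was not counted here. All 10 cycling cDC-like cells of suffix 1 and 13 of 16 of suffix 2 carried Xcr1 or Clec9a UMIs without Cd209a, a gene of cDC2. The other 3 of suffix 2 carried Cd209a alone. Among the cDC-like cells outside the rule, some of which carried UMIs of 1 rule gene, 27 of 50 and 22 of 56 had Xcr1 or Clec9a alone. In the same cells 13 and 18 had Cd209a alone. The share with Xcr1 or Clec9a alone was 100% (69.2% to 100%) among the cycling and 54% (39.3% to 68.2%) among the other cells of suffix 1, and 81.2% (54.4% to 96.0%) and 39.3% (26.5% to 53.2%) in suffix 2, and these intervals did not overlap in either library. Cycling cDC-like cells were about 2 times as deep as the others (medians of 19776.5 against 9710 UMIs and 16522.5 against 7866.5), and the part of depth in detecting these genes was not tested. The share of cells with Cd209a alone was 0% (0% to 30.8%) among the cycling and 26.0% (14.6% to 40.3%) among the other cells of suffix 1, and 18.8% (4.05% to 45.6%) and 32.1% (20.3% to 46.0%) in suffix 2, so the intervals overlapped in both libraries. H2-Ab1, a class II antigen presentation gene, was at 4251 and 5379 CPM in the cycling cells, beside 5431 and 4881 CPM in the others.

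The following ratios compare cells of unlike subset mix, since Xcr1 or Clec9a alone marked 100% and 81.2% of the cycling and 54% and 39.3% of the other cells, and the part of that mix was not tested. The 10 smallest ratios in cDC-like cells were led by Tmcc3, at 0.0387 (0.000965 to 0.223) and 0.0193 (0.000484 to 0.110), and also held Slfn5, Gclc and Zc3h12c. Ccl22, a chemokine that mature dendritic cells make, had no UMI in any cycling cDC-like cell and was at 189 and 114 CPM in the others, ratios of 0.0727 and 0.0985 with the cycling cells set at 3 UMIs (exact upper limits 0.0910 and 0.125). Ccl5, another chemokine, was at 4.59 and 3.73 CPM (1 UMI in each library) against 113 and 309 CPM. Ccnd2 had ratios of 0.058 (0.0069 to 0.22) and 0.17 (0.059 to 0.38), and Fabp5, a fatty acid binding protein, 0.22 (0.070 to 0.55) and 0.081 (0.021 to 0.21). Basp1 and Bcl2a1b, a survival gene of the BCL2 family, were lower in both libraries as well, at ratios of 0.24 and 0.10 and of 0.25 and 0.028. These ratios compare 10 and 16 cycling cells with 50 and 56 others.

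Most cells of the B lineage that passed the rule were secreting cells, and 2 of these, with 16 and 12 listed cell cycle genes, had 1 UMI of Mki67. Jchain, which joins IgA and IgM, was at 110 UMIs or more in 4 of 5 cells of suffix 1 and 4 of 6 of suffix 2, and Mzb1, a chaperone of antibody secretion, was detected in all 11. These cells with high Jchain each had 1 dominant heavy chain constant gene. In suffix 1 this was Ighg2b in 1 cell (516 UMIs), Ighg1 in another (366 UMIs) and Igha in a pair (1094 and 264 UMIs). In suffix 2 it was Ighg1 in a pair (527 and 800 UMIs) and Igha in another pair (562 and 791 UMIs). In each library 1 cell had the genes of a B cell instead, with 12 and 21 UMIs of Ms4a1 (CD20), 6 and 6 of Pax5, 21 and 31 of Ighm and no Jchain UMI. Bcl6, a transcription factor of germinal centre B cells, gave 1 UMI in 1 cell of each library. The remaining cell of suffix 2 had 42 UMIs of Ebf1, 99 of Igha and 9 of Jchain.

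Hepatocyte-like cycling cells of the 2 libraries were unlike. The 4 cells of suffix 1 had 34548 to 66134 UMIs, 605 to 962 UMIs of Alb, 27 to 55 of Mki67, 30 to 63 of Top2a and 92 to 106 of the 120 cell cycle genes. The 3 cells of suffix 2 had 20312 to 32631 UMIs, 4 to 9 of Mki67, 1 to 10 of Top2a and 45 to 66 cell cycle genes, at 13.7% to 22.8% of mitochondrial UMIs. The mitotic genes summed to 9674 CPM (9249 to 10114) in the cells of suffix 1 and 2392 CPM (2062 to 2759) in those of suffix 2.

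The 4 cells of suffix 1 were rich in Spp1, which encodes osteopontin, a secreted matrix protein. They held 852, 978, 1321 and 1066 Spp1 UMIs at 34548, 39130, 61026 and 66134 UMIs in all. Together this was 20997 CPM (20368 to 21641), beside 1043 CPM in the 547 other hepatocyte-like cells of the library and 1024 CPM in the 376 of those with at least 20000 UMIs. Only 1 of the 547 held as many UMIs of Spp1 as the lowest of the 4, and 8 held as high a CPM. The 3 cells of suffix 2 had 0, 2 and 0 Spp1 UMIs. These values were looked up after the cells had been seen, and the 4 cells were not chosen by Spp1.

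The same 4 cells held less of several hepatocyte products. Cps1, the first enzyme of the urea cycle, gave 1 to 6 UMIs per cell, 69.7 CPM (38.1 to 117) against 1451 CPM in the other hepatocyte-like cells of suffix 1. Fabp1 was at 1997 CPM against 18087 CPM, and Apoa1 at 921 CPM against 6034 CPM, while Ttr was close at 9754 and 11444 CPM. Alb was at 16795 CPM against 39485 CPM. Of the bile duct markers, Krt7 and Krt19 gave no UMI, Sox9 gave 2 to 11 UMIs in all 4, 129 CPM (84.6 to 190) against 13.6 CPM in the others, and Epcam 10 UMIs in 1 cell, 49.8 CPM (23.9 to 91.6) against 5.86 CPM. Afp, a fetal liver gene, gave none. Ptprc, C1qa, Stab2 and Dcn together gave 2 UMIs over the 4 cells, so defining markers of leukocytes, endothelium and stellate cells were at or near 0. In the 3 cells of suffix 2 Cps1 stood at 1425 CPM (1173 to 1715), beside 1816 CPM in the others, and Fabp1 at 15726 beside 17605 CPM.

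Cebpa itself, the gene deleted in the KO, was not detected in the 4 cycling hepatocyte-like cells of suffix 1 and was detected in 19 of the 547 others of that library. The 4 cells had 0 CPM (0 to 18.4), an interval that holds the 1.34 CPM of the others. In suffix 2 it gave 1 to 3 UMIs in each of the 3 cycling cells and was detected in 349 of 487 others. No suffix is assigned to a genotype from these values. Cycling macrophage-like cells carried Cebpa at 102 CPM (63.4 to 157) in suffix 1 and 202 CPM (65.5 to 471) in suffix 2, near the 144 and 173 CPM of the others.

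The remaining cells came from lineages with 1 or 2 cycling members. The 2 endothelial-like cells of suffix 1 had 8 and 24 UMIs of Stab2, 5 and 18 of Kdr (a VEGF receptor), no Vwf UMI, and 70 and 92 of the cell cycle genes. The NK-like cell of suffix 2 had 4 UMIs of Klrb1c, 5 of Ncr1 and 8 of Klrk1. It had 1 UMI of Prf1 and none of Eomes, Gzma or Cd3e. A short list of T cell genes gave 8 UMIs in this cell, so its name rests in part on the absence of Cd3e. Its mitotic genes summed to 18262 CPM, the highest of all cycling cells. The neutrophil precursor-like cell of suffix 2 had 1041 UMIs of S100a8 and 1382 of S100a9 with 269 of Ngp and 123 of Ltf, granule genes of late marrow precursors, and none of Elane or Mpo, granule genes of earlier ones. Only 1 of the 45 other cells of its class in that library held an Ngp UMI. The stellate-like cell had 2631 UMIs, with 9 of Reln, 1 of Dcn and none of Lrat or Col1a1, so its name rests almost on Reln alone.

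The stage of the cycle was described by the summed level of 28 replication genes and 38 mitotic genes. The mitotic sum was higher than the replication sum in 39 of 58 cycling cells of suffix 1 and in 33 of 54 of suffix 2, and the reverse held in 17 and 20. T-like cells were evenly split, with the replication sum higher in 5 of 13 and 7 of 13. Among cDC-like cells it was higher in 1 of 10 in suffix 1 and 7 of 16 in suffix 2, and among macrophage-like cells in 7 of 15 and 0 of 4. The mitotic sum was higher in all 4 hepatocyte-like cells of suffix 1. The rule asks for Top2a and Mki67, whose transcripts peak late in the cycle, so cells in G1 or early S phase are under-represented among the 112, and the split is not an estimate of phase lengths.

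Cells with markers of several lineages were 16 of the 112 and were kept apart. Their medians were 26297.5 UMIs in suffix 1 and 19446.5 in suffix 2, beside 14499.5 and 13891.5 in the cycling cells outside this class. In suffix 1, 7 of 8 carried macrophage markers, 3 of them with endothelial and 3 with cDC markers, and in suffix 2, 6 of 8 carried hepatocyte levels of Alb. Whether these are doublets was not tested. In suffix 2 macrophage markers were on 2 of the 8.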

How the data were processed

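Livers were perfused and digested, cells were enriched on Percoll and captured by the 10x 3′ method, 1 lane per sample. The deposited values are UMI counts per gene and barcode, which the authors left without normalization. The submitters' processing notes name Cell Ranger 7.1.0, STAR 2.7.2a, bcl2fastq 2.20.0 and mm10. No source used here gives the annotation, the cell calling or any equalising of depth between libraries. The matrix held 32285 genes and 17313 barcodes (60048646 UMIs) of suffix 1 and 15003 barcodes (52355243 UMIs) of suffix 2.

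Barcodes under 1000 UMIs or over 25% mitochondrial UMIs were left out. Counts were summed over cells and divided by their total to give CPM. Intervals were Clopper-Pearson for shares, exact Poisson for sums and conditional exact for ratios. No test was run, as each suffix is 1 library and cells are not replicates. A doublet caller was not run, and cells with markers of at least 2 lineages were kept apart. Lineage limits, per 10000 UMIs, were set after the counts were seen. A lineage was planned to enter gene ratios at 20 cycling cells in a library, which none reached, and 10 was used. A gene was called at a ratio of 2 or 0.5, at 50 CPM or more. Named genes were the members of 10 cell cycle lists, lineage genes, Cebpa and Spp1, and the 10 largest and 10 smallest ratios at 100 CPM or more in a lineage, ranked by the ratio closer to 1 where both libraries were compared. The granzyme gene Gzma, Eomes, Klrk1, the cDC subset genes, class II genes, immunoglobulin constant genes, B cell and neutrophil genes and the hepatocyte genes other than those listed were chosen after their values were seen. The members and lists were chosen with earlier results of these data known. The ratio script was tested on simulated data. Python 3.11.15, numpy 2.4.6, scipy 1.17.1, pandas 2.3.3 and matplotlib 3.10.9 were used.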

Additional observations from a re-analysis of the deposited data

Results flagged for a closer look

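Droplets outside the limits also held both transcripts. In suffix 1, 6 of 5034 droplets over the mitochondrial limit carried Mki67 and Top2a UMIs (0.119%, 0.0438% to 0.259%), beside a limit of 0.0596% for a count of 0, which lies within that interval. They had 25.5% to 48.8% of mitochondrial UMIs and 3580 to 42690 UMIs in all, and 2 were macrophage-like, 2 cDC-like and 1 B or plasma-like. In suffix 2 the count was 3 of 8719. None of 3959 and 1608 droplets under 1000 UMIs carried both.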

How the results depend on the processing

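Of 252 values recomputed under alternatives for 44 results, 179 moved by less than their counting interval, or less than 1.5 times for a count, and 73 moved further. No paired analysis was possible because each group has 1 sample and no result comes from a test. The share of cells that cycle, in suffix 1 and 2, was 1.38% and 1.64% at a minimum of 2000 UMIs, 3.02% and 3.26% at 5000 UMIs, and 0.180% and 0.321% (15 cells in each) after thinning to 1000 UMIs. It was 0.499% in suffix 1 at a minimum of 500 UMIs, 0.529% in suffix 1 with 2 UMIs of each gene, and 0.667% in suffix 2 at a mitochondrial limit of 50%. With either gene in place of both, 184 (2.21%) and 147 (3.14%) cells were chosen, of which cDC-like cells made up 7.07% and 15.6% and macrophage-like cells 19.7% in suffix 2. With either gene, the thinned shares were 4.96% of macrophage-like and 3.40% of T-like cells in suffix 1 and 4.40% of B or plasma-like cells in suffix 2. With markers from 1 UMI, macrophage-like cells made up 5.17% and 1.85% of cycling cells, as more cells carried several lineages. At a mitochondrial limit of 10% no hepatocyte-like cycling cell of suffix 2 was left (0%). Without thinning, shares were 5.32% of macrophage-like cells in suffix 1, 2.45% and 2.92% of T-like, 16.7% and 22.2% of cDC-like, and 3.30% of B or plasma-like cells in suffix 2. At 5000 UMIs they were 4.78% of macrophage-like cells in suffix 1, 3.74% and 6.02% of T-like, 5% and 11.6% of B or plasma-like, and 15.9% of cDC-like cells in suffix 2. Counts of genes depended on the filter. At 20 CPM, higher and lower genes numbered 929 and 408 in macrophage-like cells, 1161 and 934 in T-like cells of suffix 1, 1372 and 1230 in those of suffix 2, 1036 and 790 in cDC-like cells of suffix 1, and 1002 and 1117 in those of suffix 2. With no filter these were 3374 and 734, 4495 and 1123, 3876 and 1616, 2137 and 1170, and 1449 and 1762. In cDC-like cells of suffix 2 lower genes thus outnumbered higher ones under both filters, while at 50 CPM they did not. With 2 UMIs of each gene, 202 genes were lower in macrophage-like cells. In cDC-like cells of suffix 1, the mean of cells gave 806 higher and 454 lower genes, and 486 were lower at a mitochondrial limit of 10% and 512 without cycling cells over 20000 UMIs. By the mean of cells, replication and mitosis levels were 3220 and 4964 CPM in T-like and 1784 and 3906 CPM in cDC-like cells of suffix 1. At a mitochondrial limit of 10%, mitosis levels were 3454 CPM in macrophage-like and 5057 CPM in T-like cells of suffix 1 and 5111 CPM in cDC-like cells of suffix 2, and replication was 2375 CPM in cDC-like cells of suffix 1. Without cycling cells over 20000 UMIs, mitosis levels were 3414 CPM in macrophage-like cells of suffix 1, 5358 CPM in T-like and 5111 CPM in cDC-like cells of suffix 2, and replication was 1790 CPM in cDC-like cells of suffix 1. The minimum and the thinning of 5000 UMIs and the limit of 10 cells were chosen after seeing the data. Where no construction shows it, the cause was not tested.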
